A study of Homo sapiens with 4 samples.

Results

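The interleukin 1 family genes described here are IL1A, IL1B, IL18, IL33, IL36G and IL37, which encode ligands, IL1RN, which encodes the interleukin 1 receptor antagonist, and IL1R1, IL1R2 and IL1RAP, which encode receptors. These 10 genes were taken by name from a list of family members, chosen with earlier results of these data known. Each of them was on the array. They account for 14 of 58201 probes and for 10 of 25121 genes with a symbol. The RNA came from PC3 and DU145 cells, established prostate cancer lines that grow without androgen, and was measured on 4 Agilent arrays of 1 colour each, 1 array for each condition. PC3-shC and DU145-shC cells carried a control shRNA, directed against luciferase per the labels, and PC3-shESS2 and DU145-shESS2 cells carried an shRNA against ESS2, a nuclear protein that associates with the spliceosome. The labels call all these cells transduced, as the study's xenograft methods do for the cells used there. Its cell culture methods instead describe PC3 cells that took up the shRNA on a plasmid and were kept in puromycin. All cultures were grown in the same serum-containing medium, and no cytokine treatment is given in the labels.

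As each condition had 1 array, no difference within a cell line has a replicate check and none is given a p-value. Between 50.8 and 52.6% of the non-control spots of an array were well above background, and 0 were saturated. The log2 ratio of single spots of one probe between the PC3 arrays varied with a median SD of 0.0806, a measure that leaves out hybridization and culture. The ESS2 probe gave signals of 133 and 53.6 in PC3-shC and PC3-shESS2 cells (log2 ratio −1.45), and 85.7 in DU145-shC and 17.3 in DU145-shESS2 cells (log2 ratio −2.35). With normexp background correction these ratios were −0.90 and −1.13. The log2 ratios of GAPDH and ACTB were 0.18 and 0.15 in PC3 and 0.04 and −0.04 in DU145 cells. All 5 epithelial markers (EPCAM, KRT8, KRT18, KRT19 and CDH1) were well above background on all 4 arrays, with EPCAM lower in DU145-shESS2 than in DU145-shC cells (log2 ratio −2.61). The PC3 arrays shared 1 slide and the DU145 arrays another, so cell line and slide cannot be told apart.

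Interleukin 1α and interleukin 1β, the products of IL1A and IL1B, bind the receptor encoded by IL1R1, which then recruits the accessory chain encoded by IL1RAP and signals through MYD88 and IRAK kinases to NF-κB. The antagonist encoded by IL1RN occupies the same receptor without recruiting the accessory chain, and the receptor encoded by IL1R2 binds the ligands but lacks the intracellular signalling domain. Interleukin 1β and interleukin 18 are made as precursors that caspase-1 cleaves in inflammasomes. Interleukin 33 is a nuclear alarmin that signals through the IL1RL1 receptor and the same accessory chain, interleukin 36γ signals through IL1RL2, and interleukin 37 is known for dampening inflammatory responses. In epithelial tissues these cytokines are best known as products of stressed or infected cells and as inducers of neutrophil-attracting chemokines.

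In PC3 cells, most members were detected and most of those differed by more than 2-fold between PC3-shESS2 and PC3-shC cells. Well above background on both PC3 arrays were 9 of the 10 members, all but IL36G. Lower in PC3-shESS2 cells were 3 of these 9 (IL1A, IL1B and IL37), beside 3.87% of the 16764 genes compared, and higher were 4 of them (IL1RN, IL18, IL1R1 and IL1R2), beside 3.88%. The remaining 2, IL33 and IL1RAP, stayed within 2-fold. The median log2 ratio was 0.12 over the 9 members and −0.06 over all genes compared, so the members were spread in both directions. Scaled to the array medians the median of all genes was −0.16, and with the authors' scaled values it was 0.04, with the same 7 members past 2-fold in the same directions.

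IL1B had the largest difference among the members. Its signal was 43800 ± 4380 in PC3-shC and 3170 ± 317 in PC3-shESS2 cells (± the error that the scanner software assigns to a spot), a 15.2-fold lower level after scaling, with a log2 ratio of −3.93. The log2 ratio lay between −4.03 and −3.79 under the processing alternatives. IL1A, the gene beside it on the chromosome, had a signal of 90.5 ± 9.23 in PC3-shC and 21.7 ± 2.85 in PC3-shESS2 cells, which is 4.60-fold lower with a log2 ratio of −2.20. Both agonist genes were thus lower in the knockdown cells, and both stayed well above background there.

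IL37 had a signal of 159 ± 16.0 in PC3-shC and 27.9 ± 3.66 in PC3-shESS2 cells, which is 6.28-fold lower with a log2 ratio of −2.65. The direction was therefore the same for a ligand gene with a dampening role as for the agonist genes. For the dimmer of these probes the size depended on the background correction. With normexp, the log2 ratio was −1.15 for IL1A and −1.35 for IL37, each still past 2-fold.

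IL18 was higher in PC3-shESS2 cells. Its signal was 1350 in PC3-shC and 4180 in PC3-shESS2 cells, a 2.81-fold higher level with a log2 ratio of 1.49, and the ratio lay between 1.39 and 1.58 under the alternatives. IL1B and IL18, whose precursors are both caspase-1 substrates, thus differed by more than 2-fold in opposite directions. IL33 had signals of 60.1 and 71.8 and a log2 ratio of 0.12, within the scanner error of 0.21 on the log2 scale. The probe for IL36G was not well above background on any array, with signals of 7.69, 4.16, 2.39 and 2.37 in PC3-shC, PC3-shESS2, DU145-shC and DU145-shESS2 cells, and no fold is given for it.

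**Figure D1:**
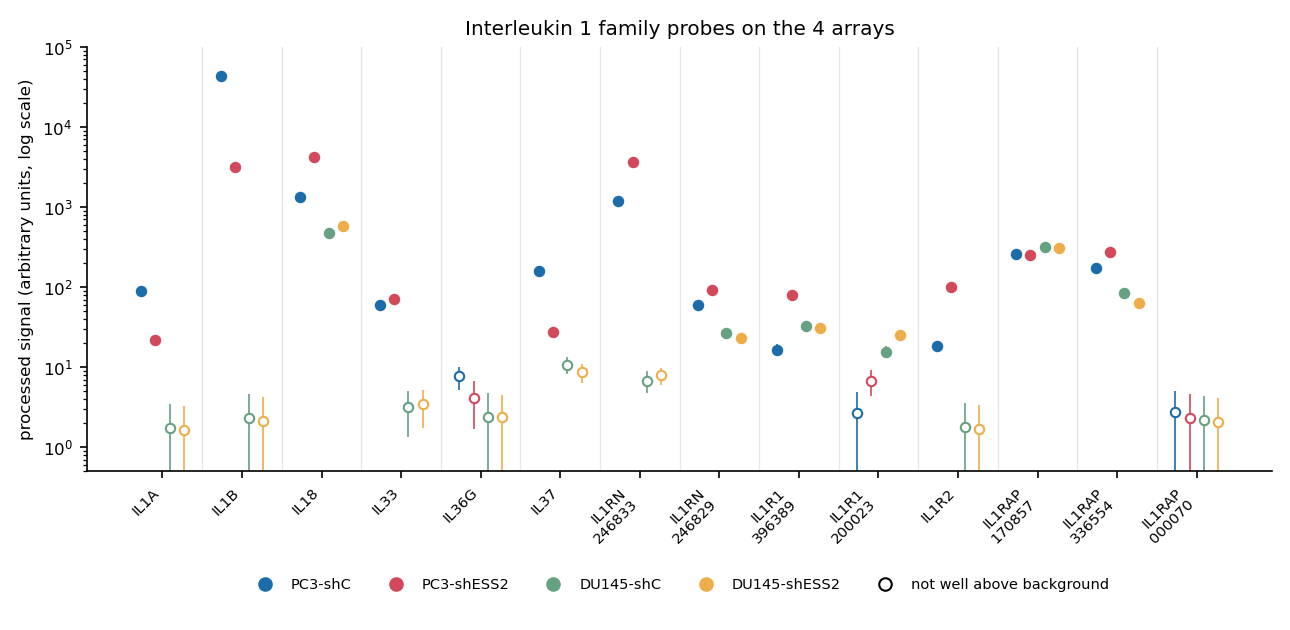
Processed signal (arbitrary units, log scale) of each probe of the 10 members on the 4 arrays, 1 point per array; bars are the scanner software's error of the spot, cut at the lower axis limit, and open points are not well above background. Genes with several probes are labelled with the last digits of the probe's name. Signals of different probes are not comparable. IL1B lies at 43800 in PC3-shC and 3170 in PC3-shESS2 cells, and IL1A, IL1B, IL33, IL37 and IL1R2 have open points on both DU145 arrays.

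IL1RN, the antagonist gene, was higher in PC3-shESS2 cells by both of its probes, but by different amounts. Its brighter probe, A_33_P3246833, had a signal of 1180 in PC3-shC and 3620 in PC3-shESS2 cells, a 2.78-fold higher level with a log2 ratio of 1.48. The other probe, A_33_P3246829, had signals of 59.2 and 92.0 and a log2 ratio of 0.50, against a scanner error of 0.22. The file annotation assigns both probes to the same transcript, so the files do not tell which transcripts each one reads. With the mean of both probes the log2 ratio was 0.99, just inside 2-fold.

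The receptor genes IL1R1 and IL1R2 were also higher in PC3-shESS2 cells. IL1R2, the decoy receptor gene, had a signal of 18.5 ± 2.63 in PC3-shC and 101 ± 10.3 in PC3-shESS2 cells, which is 4.95-fold higher with a log2 ratio of 2.31. IL1R1, the signalling receptor gene, had signals of 16.6 and 79.6 by its brighter probe A_33_P3396389, which is 4.35-fold higher with a log2 ratio of 2.12. Its other probe, A_24_P200023, was dim, that is not well above background, on both PC3 arrays, with signals of 2.65 and 6.73, so the IL1R1 difference rests on 1 probe. It fell inside 2-fold with normexp (log2 ratio 0.61) and with the mean of both probes (0.996), while IL1R2 stayed past it with normexp (1.07).

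IL1RAP, the accessory chain gene, has 3 probes assigned to different transcripts, and these did not move alike. The probe assigned to the transcript of the membrane-bound form, A_23_P170857, had signals of 262 in PC3-shC and 254 in PC3-shESS2 cells and a log2 ratio of −0.19, against a scanner error of 0.20. The probe assigned to a transcript of the soluble form, A_23_P336554, had signals of 175 and 275 and a log2 ratio of 0.51. The last probe was not well above background on any array.

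**Figure D2:**
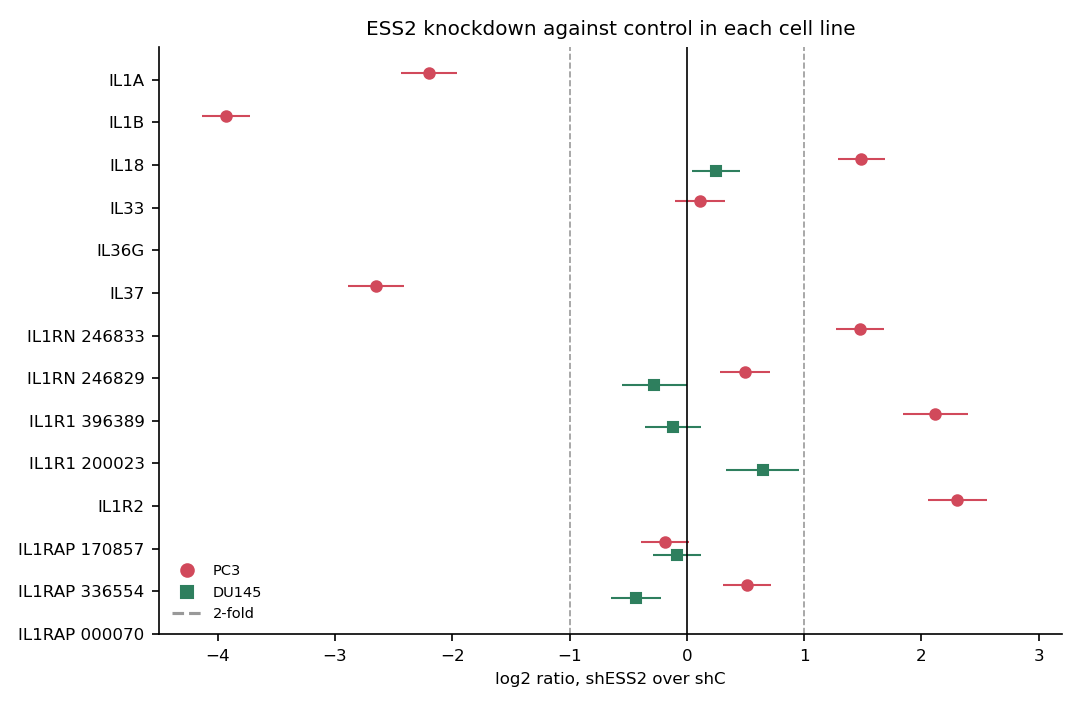
Log2 ratio of shESS2 over shC cells for each member probe that was well above background on an array of the cell line, in PC3 (circles) and DU145 cells (squares); bars are the scanner errors of both spots combined and say nothing of cultures or hybridizations. Dashed lines mark 2-fold. IL1B, IL37 and IL1A lie on the left in PC3 cells and IL1R2, IL1R1, IL18 and the brighter IL1RN probe on the right, and every DU145 point lies inside 2-fold.

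In DU145 cells fewer members were detected, and those that were stayed within 2-fold. By any probe, 4 of 10 members were well above background on both DU145 arrays: IL18, IL1R1, IL1RAP and, by its dimmer probe alone, IL1RN. By the probe that represents each gene 3 members were compared, and past 2-fold 0 were lower and 0 higher, beside 2.47% and 2.36% of 16842 genes. IL18 had signals of 474 in DU145-shC and 580 in DU145-shESS2 cells and a log2 ratio of 0.25. IL1R1 had signals of 32.5 and 30.8 by its brighter probe, with a log2 ratio of −0.12, and 15.6 and 25.1 by the other, with a log2 ratio of 0.65. These 2 probes lay on opposite sides of no difference. The IL1RAP probes had signals of 321 and 311 (log2 ratio −0.09) for the membrane-bound form and 84.0 and 64.0 (−0.43) for the soluble form. IL1RN had signals of 27.1 and 23.0 by its dimmer probe, with a log2 ratio of −0.28. The genes IL1A, IL1B, IL33, IL37 and IL1R2 were not well above background on either DU145 array, so whether ESS2 knockdown altered them there was not measurable on these arrays.

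Where a probe was well above background on all 4 arrays, the ratios of both lines could be set against each other. The log2 ratio in PC3 exceeded that in DU145 cells by 2.24 for IL1R1, by 1.24 for IL18, by 0.77 for the dimmer IL1RN probe and by 0.94 for the soluble-form IL1RAP probe, and it was 0.10 lower for the membrane-form IL1RAP probe. The IL1R1 difference depended on the processing, with ratios of 0.61 in PC3 and −0.03 in DU145 cells with normexp and of 0.996 and 0.26 with the mean of its probes. With 1 array per condition these differences between the lines were not tested.

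The lines themselves differed in these genes without ESS2 knockdown. Compared between PC3-shC and DU145-shC cells, 6 of 9 members were more than 2-fold higher in PC3-shC cells (IL1A, IL1B, IL1RN, IL18, IL33 and IL37), beside 22.1% of 17475 genes, and 1 was lower (IL1R1), beside 19.9%. IL1B reached 43800 in PC3-shC cells and was not well above background in DU145-shC cells (2.29), so it was at least 4082-fold higher in PC3-shC cells. IL1RN was at least 110-fold higher by its brighter probe, for which DU145-shC cells had a signal of 6.79, not well above background. Its dimmer probe, measured in both lines with signals of 59.2 and 27.1, was 1.76-fold higher, and the log2 ratio of 6.78 by the brighter probe became 3.80 with the mean of both. The same kind of bound was at least 11.9-fold for IL37, 8.43-fold for IL1A, 5.60-fold for IL33 and 1.72-fold for IL1R2. These bounds depend on the background correction. With normexp the log2 ratio went from 11.99 to 9.08 for IL1B, from 6.78 to 4.08 for IL1RN, from 3.57 to 1.28 for IL37, from 3.08 to 1.17 for IL1A and from 0.79 to 0.07 for IL1R2.

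Besides the dimmer IL1RN probe, IL18, IL1R1 and IL1RAP allowed a measured fold rather than a bound. IL18 was 2.30-fold higher in PC3-shC cells. IL1R1 was 2.43-fold lower there by its brighter probe and at least 2.17-fold lower by the other. IL1RAP was 1.52-fold lower by the membrane-form probe and 1.68-fold higher by the soluble-form probe, so the balance of these probes differed between the lines. The scaling moved all such values together, because the median log2 ratio of all genes was 0.12 here, 0.58 with median scaling and −0.33 with the authors' scaled values. The split was 7 higher and 0 lower with median scaling, 6 and 0 with quantile normalization, 5 and 0 with normexp, and 5 and 2 with the authors' values, and 1 and 1 when genes had to be well above background on both arrays. IL18 fell inside 2-fold with quantile normalization and the authors' values (log2 ratios 0.91 and 0.75), IL33 with normexp (0.81), and IL1R1 with median scaling, quantile normalization and normexp (−0.82, −0.85 and −0.45).

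The limma fit used the 4 arrays together and blocked on cell line, which left 1 residual degree of freedom. It tests the knockdown change averaged over both lines against the residual spread. It called 0 of 9 members for the knockdown at a Benjamini-Hochberg adjusted p of 0.05, beside 0% of 17126 genes, although 1047 of these genes had an unadjusted p under 0.05, with 0 members among them. The fitted knockdown change was −2.03 ± 0.99 (log2, SE) for IL1B and 0.87 ± 0.36 for IL18, with a limma adjusted p of 0.746 for each. For 6 members (IL1A, IL1B, IL1RN, IL33, IL37 and IL1R2) both DU145 values in this fit are dim and at or near the background floor, so the fitted change averages the PC3 ratio with a pair of values not well above background. For the difference between the lines, the fit called 7 of 9 members, beside 52.3% of genes. Of these, IL1A, IL1B, IL1RN, IL33 and IL37 entered the fit through the PC3 arrays alone, where they are high, so their call was largely set by the filter and gives no support of its own. For the members measured on all 4 arrays, the limma adjusted p was 0.022 for IL18 (higher in PC3 cells), 0.0457 for IL1RAP (lower) and 0.835 for IL1R1. The call of IL18 was lost with the authors' scaled values. That of IL1RAP was lost with median scaling and with plain dim signals, and its direction turned with the mean of its probes. These p-values describe line and slide together.

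The members on chromosome 2 lie in a ligand cluster and a receptor cluster. Past 2-fold in PC3 cells, 3 genes of the ligand cluster were lower and 1 higher, and 3 genes of the receptor cluster were higher and 0 lower, beside 3.87% of all genes lower and 3.88% higher. In RefSeq order, the ligand cluster holds IL1A, IL1B, IL37, IL36G, IL36A, IL36B, IL36RN, IL1F10 and IL1RN. Of its 9 genes, 6 were compared in PC3 cells, and the 3 that were lower in PC3-shESS2 cells, IL1A, IL1B and IL37, are consecutive at one end. IL1RN, higher, closes the other end, and between them IL36RN, the interleukin 36 receptor antagonist gene, had signals of 18.0 and 16.2 with a log2 ratio of −0.29. IL1F10, which lies beside IL1RN, had signals of 16.5 and 10.6, the latter not well above background, and was at least 1.72-fold lower. Of the 6 nearest genes outside the cluster, 4 were compared and 0 passed 2-fold, among them CKAP2L beside IL1A (log2 ratio −0.12) and PSD4 beside IL1RN (−0.01).

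The receptor cluster holds IL1R2, IL1R1, IL1RL2, IL1RL1, IL18R1 and IL18RAP. Of the 5 compared in PC3 cells 0 were lower and 3 higher past 2-fold, namely IL1R2, IL1R1 and IL1RL1. IL1RL1, the interleukin 33 receptor gene, had signals of 20.8 in PC3-shC and 105 in PC3-shESS2 cells, which is 4.58-fold higher with a log2 ratio of 2.19. The interleukin 18 receptor genes beside it differed, with a log2 ratio of 0.38 for IL18R1 and −0.998 for IL18RAP, and the 6 genes flanking the cluster were all compared, with 0 past 2-fold. In DU145 cells 3 genes of the receptor cluster were compared and 0 passed 2-fold, beside 2.47% of all genes lower and 2.36% higher. In the DU145 ligand cluster, IL36A alone was compared, with a signal of 17.3 in DU145-shC cells and 1.64, not well above background, in DU145-shESS2 cells.

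**Figure D3:**
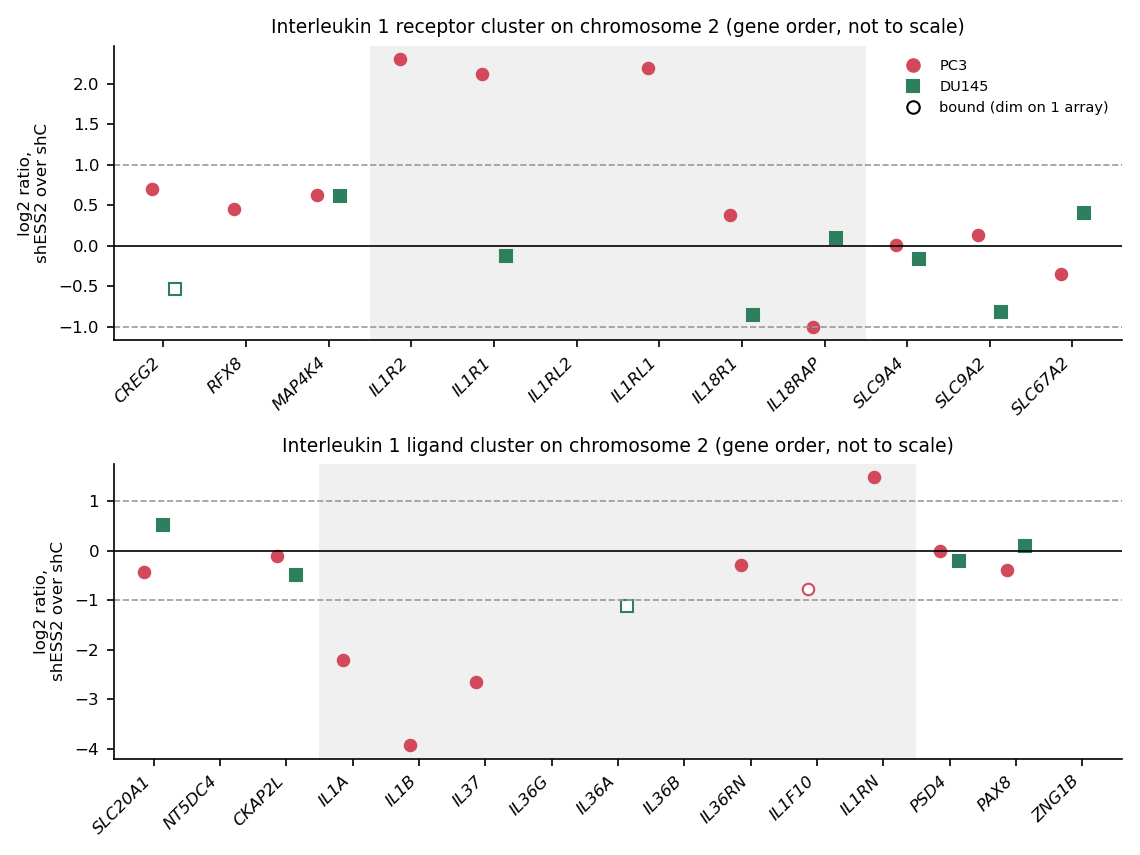
Log2 ratio of shESS2 over shC cells for the genes of the receptor and ligand clusters (grey) and the 3 nearest genes on each side, in gene order and not to scale, in PC3 (circles) and DU145 cells (squares); open symbols are bounds and genes without a symbol were not compared. In PC3 cells IL1R2, IL1R1 and IL1RL1 lie above the upper 2-fold line, and IL1A, IL1B and IL37 lie below the lower one.

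The 250 bases before the annotated start are shown for members past 2-fold in PC3 cells, 3 lower ones that neighbour each other and the higher one with the largest ratio, so that the lower and higher genes can be read side by side. RefSeq promoters on GRCh38.p14 were found for 9 of 10 members, and the most upstream start of each gene in the table was used. Capitals mark matches on either strand to TGANTCA, a site for AP-1 factors, to TATAAA, and to the NF-κB consensus. The sequences lie at chr2:112784494-112784743 (minus strand) for IL1A, chr2:112836780-112837029 (minus strand) for IL1B, chr2:112910915-112911164 (plus strand) for IL37 and chr2:101991710-101991959 (plus strand) for IL1R2.
IL1A: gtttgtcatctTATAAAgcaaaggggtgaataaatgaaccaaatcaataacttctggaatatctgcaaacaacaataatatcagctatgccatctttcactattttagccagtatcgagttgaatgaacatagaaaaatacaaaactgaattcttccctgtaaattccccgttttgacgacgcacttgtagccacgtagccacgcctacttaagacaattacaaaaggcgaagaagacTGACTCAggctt
IL1B: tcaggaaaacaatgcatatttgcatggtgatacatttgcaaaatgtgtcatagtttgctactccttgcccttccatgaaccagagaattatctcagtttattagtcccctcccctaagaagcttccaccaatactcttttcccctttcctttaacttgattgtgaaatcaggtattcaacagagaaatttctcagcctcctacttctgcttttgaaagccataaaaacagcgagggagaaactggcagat
IL37: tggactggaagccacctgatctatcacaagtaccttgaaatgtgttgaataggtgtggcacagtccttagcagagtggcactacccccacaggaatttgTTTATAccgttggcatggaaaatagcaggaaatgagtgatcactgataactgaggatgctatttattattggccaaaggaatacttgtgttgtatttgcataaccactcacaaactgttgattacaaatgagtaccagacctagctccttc
IL1R2: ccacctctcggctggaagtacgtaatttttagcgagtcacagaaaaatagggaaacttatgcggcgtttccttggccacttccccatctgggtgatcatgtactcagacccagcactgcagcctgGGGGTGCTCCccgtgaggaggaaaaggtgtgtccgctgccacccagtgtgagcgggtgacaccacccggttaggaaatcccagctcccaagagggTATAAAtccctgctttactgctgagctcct

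In these windows, IL1A held 1 match to TGANTCA, which begins 12 bases before the start, and 1 to TATAAA. IL37 held a match to TATAAA on the opposite strand alone, and IL1R2 held TATAAA, beginning 30 bases before the start, with the NF-κB consensus further upstream. IL1B held none of these motifs in its 250 bases. Over the 9 members, TGANTCA was found in 2 windows, TATAAA in 3 and the NF-κB consensus in 1, and over windows of 27305 genes the shares were 6.57%, 11.2% and 9.58%. A match is a description of the letters, and binding was not measured on these arrays.

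Few other ligands and receptors of the family passed 2-fold. Of 12 such genes, 8 were compared in PC3 cells, where IL1RL1 was higher by more than 2-fold and 0 were lower, beside 3.88% and 3.87% of all genes, with a median log2 ratio of −0.24. In DU145 cells 6 were compared, with 1 lower and 1 higher, each well above background on 1 array alone, beside 2.47% and 2.36% of all genes. IL36A was at least 2.18-fold lower in DU145-shESS2 cells, and IL1RAPL2, with signals of 2.12 and 52.1, was at least 5.86-fold higher.

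Genes of interleukin 1 receptor signalling stayed within 2-fold in both lines. Of the 16 compared in PC3 and the 18 compared in DU145 cells, 0 passed 2-fold in either direction, beside 3.87% of all genes lower and 3.88% higher in PC3 and 2.47% and 2.36% in DU145 cells. At these shares a list of this size would hold few such genes, so 0 does not set it apart. The list had median log2 ratios of −0.01 in PC3 and 0.01 in DU145 cells. The lowest ratio in PC3 cells was −0.81, for IRAK2, a kinase recruited to the activated receptor, and the highest was 0.63, for PELI1, a ubiquitin ligase.

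Among inflammasome and cytokine processing genes, 18 were compared in PC3 cells, of which 2 were lower past 2-fold and 0 higher, beside 3.87% and 3.88% of all genes. The median log2 ratio was −0.23. CASP1, which encodes the protease that matures interleukin 1β and interleukin 18, had a signal of 292 in PC3-shC and 40.1 in PC3-shESS2 cells, which is 8.03-fold lower with a log2 ratio of −3.01. P2RX7, the gene of an ATP-gated channel that triggers inflammasomes, had signals of 158 and 67.9 and a log2 ratio of −1.36. Neither gene was well above background in DU145 cells, with signals under 2 on both arrays. In DU145 cells 14 genes of the list were compared, of which 1 was lower and 0 higher, beside 2.47% and 2.36%. This was PYCARD, the inflammasome adaptor gene, with a signal of 21.1 in DU145-shC cells and 7.54, not well above background, in DU145-shESS2 cells, at least 2.66-fold lower. In PC3 cells its signals were 2760 and 2240, with a log2 ratio of −0.44.

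**Figure D4:**
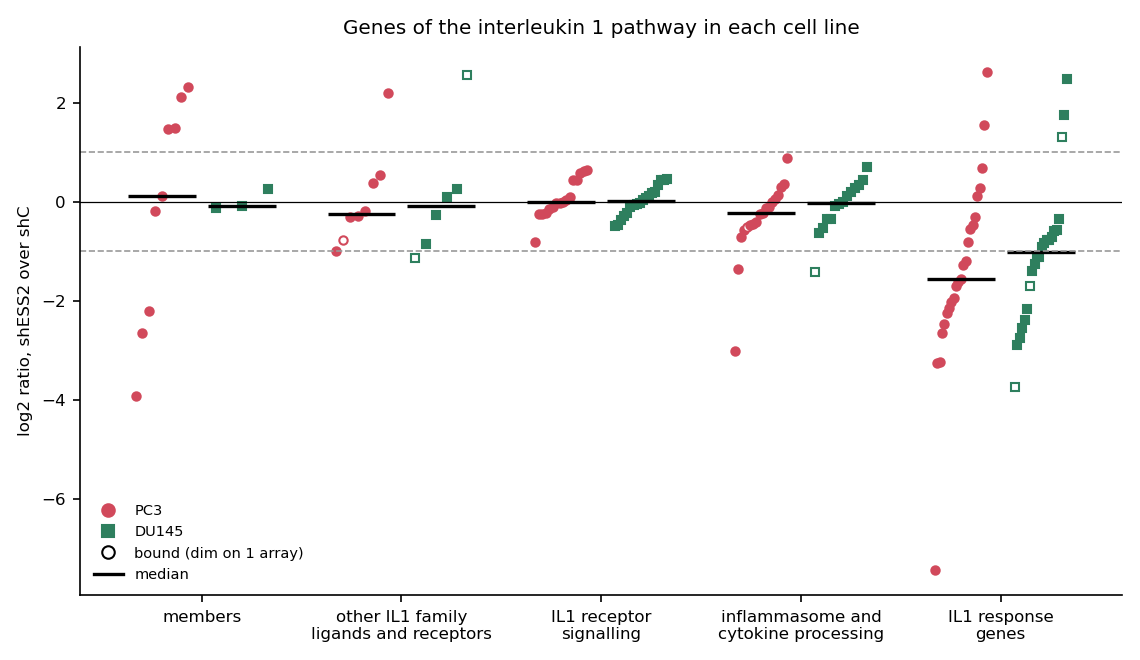
Log2 ratio of shESS2 over shC cells for the members and the 4 gene lists of the pathway, 1 symbol per gene compared, in PC3 (circles) and DU145 cells (squares); bars are medians, dashed lines mark 2-fold and open symbols are bounds. The signalling genes lie inside 2-fold in both lines, and the response genes have medians of −1.56 in PC3 and −1.02 in DU145 cells.

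Genes known to be induced by interleukin 1 were lower in both lines more often than they were higher. The list was chosen with earlier results of these data known, so its counts are not an independent check. In PC3 cells 23 of 26 were compared, of which 14 were lower and 2 higher past 2-fold, beside 3.87% and 3.88% of all genes. The median log2 ratio was −1.56, beside −0.06 for all genes. In DU145 cells 22 were compared, of which 11 were lower and 3 higher, beside 2.47% and 2.36% of all genes, with a median of −1.02, beside −0.02 for all genes. In DU145 cells the agonist genes IL1A and IL1B were not well above background, and the part of interleukin 1 in these differences was not tested in either line.

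CSF3, the gene of a neutrophil growth factor, had the largest difference of the list in PC3 cells, with signals of 7200 and 45.9 and a 173-fold lower level in PC3-shESS2 cells. LCN2, an iron-sequestering acute-phase gene, had signals of 40400 and 4680 in PC3 cells (log2 ratio −3.25) and of 243 and 42.8 in DU145 cells (−2.55). CCL20, a chemokine gene, had log2 ratios of −3.23 in PC3 and −2.75 in DU145 cells. CXCL1, which encodes a neutrophil attractant, had log2 ratios of −1.56 and −2.90, and CSF2, a macrophage growth factor gene, was 6.29-fold lower in PC3-shESS2 cells and at least 13.4-fold lower in DU145-shESS2 cells. CCL2, a monocyte attractant gene, was measured in DU145-shC cells alone, with a signal of 25.9, and was at least 3.25-fold lower in DU145-shESS2 cells.

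Not all response genes were lower. IL6 was higher in both lines, with signals of 3600 and 24400 in PC3 cells (6.15-fold) and of 336 and 1930 in DU145 cells (5.59-fold). By RT-qPCR, however, the study reported IL6 as unchanged in PC3-shESS2 cells, so its rise on these single arrays conflicts with that measurement. TNFAIP3, a feedback inhibitor of NF-κB, was higher in PC3-shESS2 cells (log2 ratio 1.55) and lower in DU145-shESS2 cells (−2.38). PTGS2 and PTGES, which encode enzymes of prostaglandin E synthesis, lay the other way, with log2 ratios of −2.24 and −2.15 in PC3 cells, while in DU145 cells PTGS2 was at least 2.46-fold higher and PTGES 3.35-fold higher. PTGES was named after its values were seen. Of 21 response genes compared in both lines, 13 were lower in PC3 and 10 in DU145 cells. In both lines 6 were lower, which is 46.2% of those lower in PC3 and 60.0% of those lower in DU145 cells. Over the 15478 genes compared in both lines these shares were 8.11% and 13.4%. As much of the list was lower in each line, many shared genes follow from these counts alone. The shares therefore do not show that the lines matched gene by gene.

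Markers of other cell types that make or answer interleukin 1 were checked in the same arrays. Of 10 monocyte and macrophage markers, 7 were on the array under a matched name, and 5 were well above background in PC3-shC and 4 on each of the other arrays. Their summed signal was 401.3 in PC3-shC and 170.6 in PC3-shESS2 cells, and 272.6 and 354.6 in DU145-shC and DU145-shESS2 cells. In PC3 cells 6 of these markers were compared. Past 2-fold, 3 were lower in PC3-shESS2 cells and 0 higher, beside 3.87% and 3.88% of all genes. CD14 had signals of 221 and 54.7, CSF1R 43.8 and 3.73 (not well above background, at least 5.35-fold lower) and TYROBP 53.5 and 26.0 (2.27-fold lower). PTPRC, which marks all leukocytes, had signals of 59.7 and 60.0, and CD163 was not well above background on any array. ITGAM, with signals of 9.53 (not well above background) and 15.7, was at least 1.49-fold higher. AIF1, with 11.5 and 8.12 (the latter not well above background), was at least 1.41-fold lower. In DU145 cells 5 markers were compared, with 0 lower and 0 higher past 2-fold, beside 2.47% and 2.36% of all genes. The part of these genes in the differences of IL1B was not tested. Of 6 fibroblast markers, 3 were well above background on the PC3 arrays and 2 on the DU145 arrays, with summed signals between 96.12 and 297.6. Among them LUM, with signals of 9.9 in PC3-shC and 48.8 in PC3-shESS2 cells, was 4.47-fold higher, and its part in the differences of the members was not tested. The cultures were of single established lines, and in their bulk RNA fewer cells expressing a gene and less RNA per cell cannot be told apart.

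The genes with the most similar profile to each member were sought among 17009 genes by the Euclidean distance between log2 levels over the 4 arrays, each centred on its mean. The profile of IL1R2 was closest to that of IL1RL1, also in the receptor cluster (distance 0.138), with both genes at the background floor on the DU145 arrays. IL1A, IL1B, IL37 and IL1RN were likewise dim on both DU145 arrays, so their distances rest mainly on the PC3 arrays. IL1B was nearest to S100A8, which encodes a subunit of calprotectin, with signals of 28200 in PC3-shC and 3260 in PC3-shESS2 cells and a distance of 0.634. The nearest gene was KRTAP1-5 for IL1A (0.127), CCR1 for IL37 (0.218), FZD8 for IL1RN (0.235), INSIG2 for IL18 (0.152) and WNT5B for IL1R1 (0.186). With 4 arrays, these distances are a description only.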

How the data were processed

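Agilent Feature Extraction (12.1.0.3 for PC3 and 12.0.3.1 for DU145, per the file headers) made the scanner output. The intensity in the scanner output is background-subtracted processed signal, without scaling between arrays. The value table that the authors deposited holds intensity too, and each of its columns was found to be the processed signal multiplied by a constant of its own. On the log2 scale the constant was 1.87 for PC3-shC, 1.82 for PC3-shESS2, 2.63 for DU145-shC and 2.61 for DU145-shESS2. The methods name GeneSpring without settings. RNA input was 0.1 µg per array.

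Here, the signal was put on a log2 scale, less the 75th percentile of an array's non-control spots. Outlier spots were left out. The brightest probe by its mean represented a gene. A gene entered a comparison if at least 1 of both arrays measured it well above background, and a dim value was raised to the lowest signal well above background, if under it, which gives folds written as "at least". Past 2-fold counted as called. Probes were named by matching unversioned accessions to a RefSeq table of GRCh38.p14, in which 35080 of 58201 probes matched. The array annotation is on hg19, so no probe coordinates are given. The names of 5 listed genes were not matched. limma 3.58.1 (R 4.3.3) was fitted to genes that at least 2 arrays measured well above background. Python 3.11.15 was used otherwise, and the scripts were tested on simulated data in which genes changed equally in both lines. That test does not show whether the fit would find a change present in PC3 cells alone.

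The members and gene lists were chosen with earlier results of these data known. Named genes were all members, up to 5 genes per list and line past 2-fold by size and up to 3 more with a dim side, cluster neighbours and the nearest profiles. Alternatives were other scalings (median, quantile, the authors' values), normexp with an offset of 50 on median spot signals, other treatments of dim spots, outliers and several probes, and for limma no block.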

Additional observations from a re-analysis of the deposited data

Results flagged for a closer look

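For 2 members, 1 probe well above background on all 4 arrays was higher in PC3-shESS2 and lower in DU145-shESS2 cells than in the control of the line, by at least 3.38 times the SD between spots in each line, which leaves out hybridization and culture. IL1R1 also had ratios of opposite sign (2.12 and −0.12), but the DU145 ratio was only 1.44 times that SD. The soluble-form probe of IL1RAP, A_23_P336554, was higher in PC3-shESS2 (log2 ratio 0.51) and lower in DU145-shESS2 cells (−0.43), a difference of 0.94 between the lines. The membrane-form probe had −0.19 and −0.09. The dimmer IL1RN probe, A_33_P3246829, was higher in PC3-shESS2 (0.50) and lower in DU145-shESS2 cells (−0.28, against a scanner error of 0.275), a difference of 0.77. With 1 array per condition neither difference was tested, and all 4 ratios lie within 2-fold.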

How the results depend on the processing

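The number of members past 2-fold stayed within 1.5 times of its value under all alternatives in the PC3 comparison and was 0 under all of them in the DU145 comparison. In the comparison of PC3-shC with DU145-shC cells it was 7, and 2 when genes had to be well above background on both arrays, which leaves 3 members to compare. Normexp moved the log2 ratio of ESS2 to −0.90 in PC3 and −1.13 in DU145 cells. The limma call of 7 members between the lines became 4 with the authors' scaled values and 2 with genes well above background on all 4 arrays, which leaves fewer genes to fit. Among limma changes, reversed were the knockdown change of IL33 (0.013 with normexp, 0.050 with the authors' values, 0.11 with plain dim signals, from −0.01), the line change of IL1R1 (0.23 with median scaling, 0.19 with quantile normalization, from −0.16) and that of IL1RAP (0.10 with the mean of its probes, from −0.65), and the cause was not tested. Of all other values of single members, 230 kept their call or moved by less than the spread, 48 moved, 11 lost a call and 2 gained one. Among ratios within 2-fold, the sign changed for IL1RAP in PC3 (0.07) and IL1R1 in DU145 cells (0.26) with the mean of probes, and for IL1RAP in DU145 cells (0.0088) with normexp. No array could be left out, as each condition has 1 and the limma fit 1 residual degree of freedom. The labels carry no replicate numbers, and knockdown and control were paired through the cell line block alone. Having 1 array per condition limits the precision, and signals near 9, the lowest well above background, bound what can be seen of members dim in DU145 cells.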
